A study of Homo sapiens with 8 samples.

Results

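The genes described here encode the proteasome, its activators, its inhibitor and the chaperones that assemble it. They were chosen by name, as every gene of the tables whose symbol begins with PSMA, PSMB, PSMC, PSMD, PSME, PSMF or PSMG followed only by digits, with the transcript of the largest span taken for each. This gave 46 of 19351 genes, on 17 chromosomes. The assay was GRO-seq, a run-on in isolated nuclei in which polymerases already on a gene add labelled nucleotides, so that the RNA captured and sequenced is nascent. The cells were MRC5 human lung fibroblasts, named MRC5_VA and described as SV40-immortalized in the study's methods. They were wild type (WT) or were knocked down (KD) for the long noncoding RNA *ZFAS1*, which the study did with lentiviral short hairpin RNA. All groups were first kept for 3.5 h in DRB at 100 µM, which holds RNA polymerase II near start sites. They then received 10 J/m2 of UV-C or none, and nuclei were taken 10 or 40 min after DRB was removed, for a run-on of 5 min. The 8 libraries are the 8 combinations of cell, UV and time, with 1 library each.

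The proteasome degrades proteins that carry chains of ubiquitin. Its 20S core is a barrel of stacked rings, in which alpha subunits form the gate and beta subunits form the chamber that cuts proteins. The 19S cap binds the core, recognizes and removes ubiquitin, and unfolds the substrate with a ring of ATPases, while PA28 and PA200 are alternative caps. *NFE2L1* (also called NRF1) is known to raise the transcription of most subunit genes together when proteasomes are short, through antioxidant response elements. In cells with UV lesions the proteasome also degrades RNA polymerase II that has stalled.

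The libraries held 10.2 to 21.1 M reads over genes, the most in the WT library without UV at 40 min. Reads were counted over whole spans, introns included. The sources used here do not say if strand was used in counting, and 6 of the 46 genes overlap a gene on the other strand, over 5.1 to 76.6% of their span. Nascent *ZFAS1* lay at 694 to 1596 CPM in KD and thus no lower than its 507 to 1789 CPM in WT, with a fitted log2 ratio of KD over WT of 0.21 ± 0.35 (SE, edgeR adjusted p = 1.0), but nascent reads do not check a knockdown that acts on finished RNA. Of 13 fibroblast markers *COL1A1* and *VIM* lay between 109 and 758.5 CPM and between 109.8 and 796 CPM, while *DCN* and *S100A4* stayed at or below 5.03 and 2.96 CPM. Of 7 endothelial markers *ERG* was the highest, between 111.8 and 969 CPM, and *VWF* lay between 48.7 and 277.7 CPM. *PECAM1* and *KDR* stayed at or below 6.16 and 9.65 CPM. The 9 immune markers together lay at 23.4 to 86.7 CPM, with *NKG7* at 0 reads. These marker levels are CPM over whole spans and not per kb. The deposited tables come in 2 different orders of transcripts. The first order holds WT without UV and KD with UV, and the second holds WT with UV and KD without UV, at both times. That split is the same as the contrast of the knockdown by UV term used below, so whatever set the order of the tables and the response to both factors cannot be told apart. Levels are CPM, counts relative to library size after TMM scaling, so a fall shared by all genes would not show. As in any bulk sample, fewer transcribing cells and fewer polymerases per cell cannot be told apart.

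Promoters of 40 of the 46 genes were found in the RefSeq table (GRCh38.p14, 250 bases before to 50 after the start site). *PSMA7*, *PSMB1*, *PSMB6*, *PSMB7*, *PSMD4* and *PSMG3* were not matched. The 5 below are shown because the results turn on these genes: *PSMD2* had the largest knockdown by UV term, *PSME1* and *PSME2* are neighbours on chromosome 14 that were both called, *PSMB9* had the opposite sign, and *PSME4* is described along its length below. Capitals mark GGGCGG, a GC box, in *PSMD2*, and TGACNNNGC, the antioxidant response element, in the others on either strand.
PSMD2 (chr3:184298991-184299290, plus strand): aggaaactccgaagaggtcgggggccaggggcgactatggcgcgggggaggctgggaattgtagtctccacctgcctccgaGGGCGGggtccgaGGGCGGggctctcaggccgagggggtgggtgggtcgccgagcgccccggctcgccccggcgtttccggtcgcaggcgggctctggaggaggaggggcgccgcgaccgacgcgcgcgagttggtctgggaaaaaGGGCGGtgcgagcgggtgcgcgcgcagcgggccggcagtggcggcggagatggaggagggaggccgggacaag
PSME1 (chr14:24135944-24136243, plus strand): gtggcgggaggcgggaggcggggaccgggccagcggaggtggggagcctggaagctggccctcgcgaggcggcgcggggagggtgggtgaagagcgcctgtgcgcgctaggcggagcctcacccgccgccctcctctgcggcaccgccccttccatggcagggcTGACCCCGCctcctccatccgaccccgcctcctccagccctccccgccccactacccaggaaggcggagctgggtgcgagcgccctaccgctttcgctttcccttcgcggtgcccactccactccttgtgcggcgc
PSME2 (chr14:24146561-24146860, minus strand): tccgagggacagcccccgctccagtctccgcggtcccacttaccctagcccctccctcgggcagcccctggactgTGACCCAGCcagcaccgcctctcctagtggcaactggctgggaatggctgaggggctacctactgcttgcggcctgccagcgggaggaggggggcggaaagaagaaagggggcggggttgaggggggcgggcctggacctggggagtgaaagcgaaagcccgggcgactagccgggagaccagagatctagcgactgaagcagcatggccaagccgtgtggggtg
PSMB9 (chr6:32853942-32854241, plus strand): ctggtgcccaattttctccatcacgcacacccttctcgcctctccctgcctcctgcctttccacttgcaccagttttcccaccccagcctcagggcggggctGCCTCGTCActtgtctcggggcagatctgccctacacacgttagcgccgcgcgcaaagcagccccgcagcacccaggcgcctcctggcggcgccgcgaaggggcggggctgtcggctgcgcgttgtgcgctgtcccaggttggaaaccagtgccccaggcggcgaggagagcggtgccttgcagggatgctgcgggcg
PSME4 (chr2:53970944-53971243, minus strand): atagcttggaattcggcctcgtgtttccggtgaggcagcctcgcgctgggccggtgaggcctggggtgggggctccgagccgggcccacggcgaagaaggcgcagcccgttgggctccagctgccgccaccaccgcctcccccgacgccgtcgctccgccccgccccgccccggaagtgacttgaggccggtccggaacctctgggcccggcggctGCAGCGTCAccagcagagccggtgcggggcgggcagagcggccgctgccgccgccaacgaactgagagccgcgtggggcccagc
TGACNNNGC, searched on both strands, was in the promoters of 13 of the 40 genes (32.5%) and of 13.6% of all 27305 promoters. GGGCGG was in 27 of the 40 (67.5%) against 44.6%. CCAAT, bound by NF-Y, was in 18 of the 40 against 35.7%, and CCGGAAGT, an ETS factor site, in 8 against 4.44%. GAAANNGAA, the repeat that interferon regulatory factors bind, was in 6 of the 40 against 8.29%, among them *PSME1*, *PSME2* and *PSMB10* but not *PSMB9*. TATAAA was in 5 (12.5%) against 12.0%. The median GC content was 62.0% for the 40 promoters and 58.3% for all. A match is a description of letters and shows no binding.

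Spans ran from 2.3 kb for *PSMB6* to 138.6 kb for *PSMA1*, with a median of 14.4 kb against 23.8 kb for all genes. Per kb, *PSMD2*, a scaffold of the 19S base that receives ubiquitin carriers, had the highest mean level, 10.1 CPM per kb. *PSMB6*, the beta subunit that cuts after acidic residues, followed at 6.57, *PSMB4*, a structural beta subunit, at 6.08, and *PSMC5*, an ATPase, at 5.89. The highest of the alpha ring was *PSMA7* at 4.10, of the lid *PSMD6* at 5.03 and of the 20S assembly chaperones *PSMG1* at 2.89. *PSME1*, a subunit of PA28, led the activators at 2.78, and *PSMD10*, which escorts an ATPase during assembly, led the 19S chaperones at 1.61. *PSMF1*, the inhibitor PI31, had 1.31. These are levels per kb of the whole span.

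The subunits of the immunoproteasome had few reads. *PSMB8*, which replaces *PSMB5* in interferon-treated and immune cells, had 0 to 5 reads in each library and was removed by the filter on low counts, leaving 45 genes tested. *PSMB9*, which replaces *PSMB6*, lay between 1.93 and 10.2 CPM, and *PSMB10*, which replaces *PSMB7*, between 1.21 and 5.16 CPM. Both genes are short, and per kb their means were 1.06 and 1.25 CPM, against 0.054 for *PSMB8*. Of the constitutive subunits, *PSMB6* had 6.57, *PSMB7* 1.48 and *PSMB3* 0.66 CPM per kb, so *PSMB9* and *PSMB10* were not low by that measure. *PSMA8*, the alpha subunit of testis, had 0.0502 CPM per kb. That is below *OR51B5*, an olfactory receptor gene that fibroblasts are not known to use, which had 0.107 to 0.332 CPM per kb. *PSMB11*, the beta subunit of the thymus, and *PSMG4*, an assembly chaperone, were not analysed here.

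**Figure D1:**
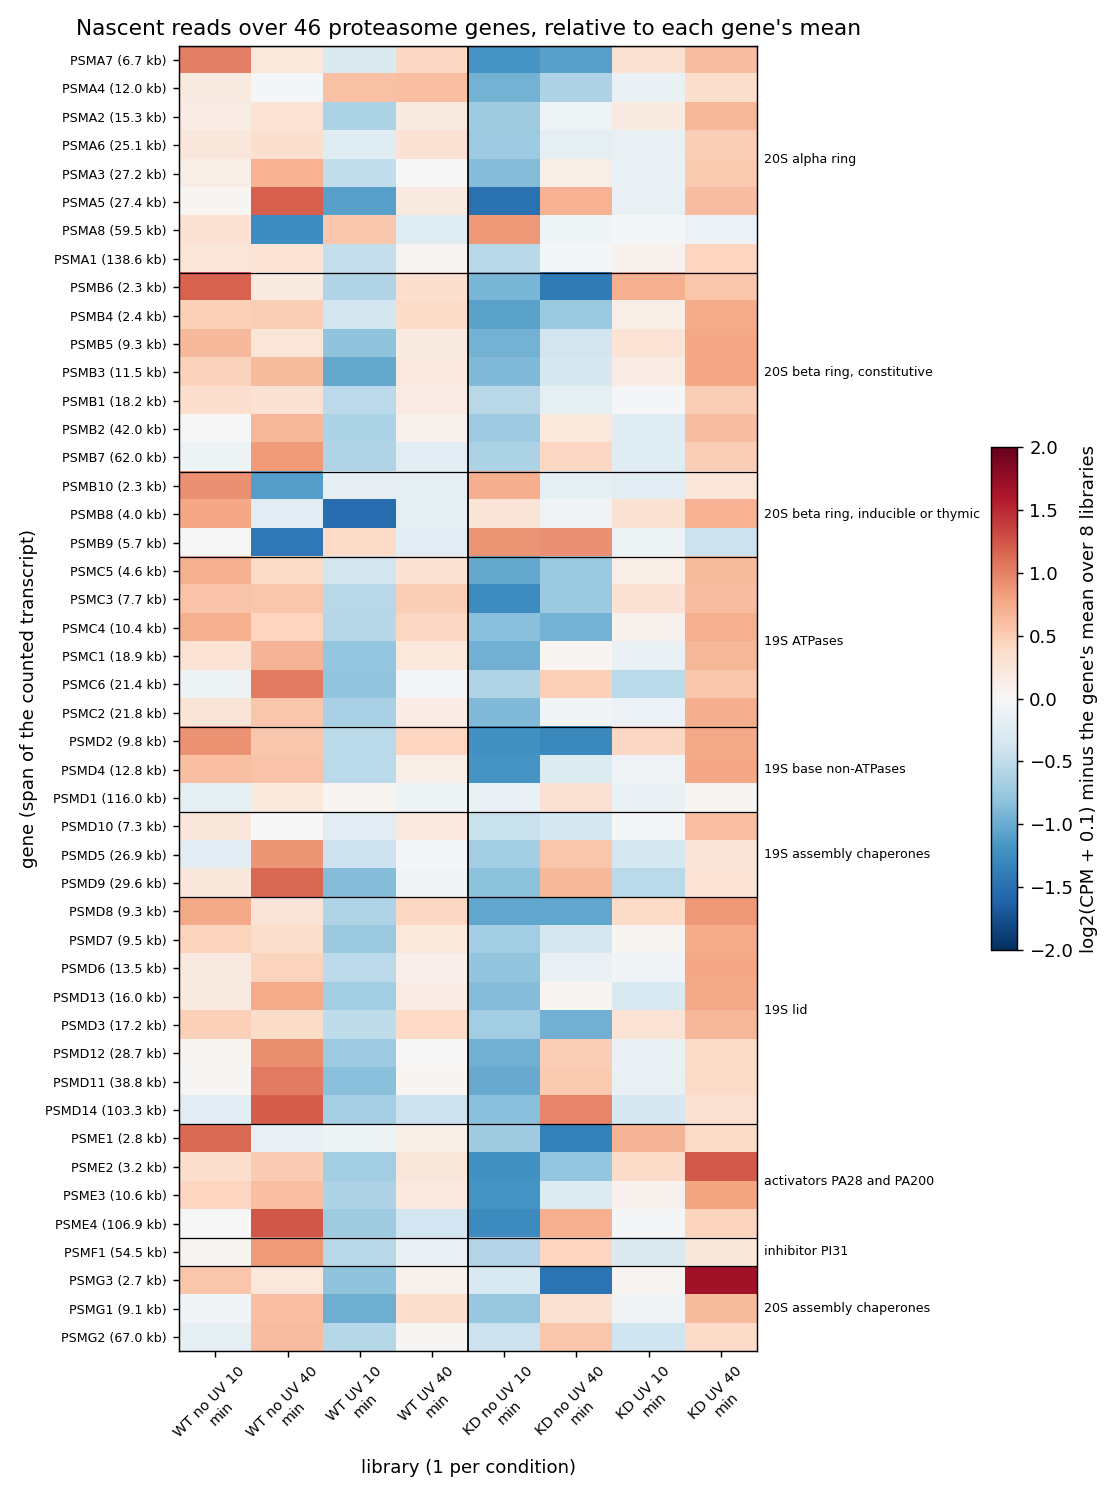
Heat map of the 46 genes (rows, by role and then by span) in the 8 libraries (columns, 1 per condition); colour is log2(CPM + 0.1) minus the mean of the gene over the 8 libraries. Most rows are blue in WT with UV at 10 min and in KD without UV at 10 min, and PSMB9 and PSMA8 run against them; PSMB8 rests on 0 to 5 reads.

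Summed over the 46 genes, nascent reads were lowest in the KD library without UV at 10 min, with 1145 CPM, and highest in the WT library without UV at 40 min, with 3205 CPM. With *OR51B5* density subtracted, KD with UV at 40 min was the highest, at 2766 against 2709 CPM. In WT the sums at 10 and 40 min were 2210 and 3205 CPM without UV and 1352 and 1994 CPM with UV. In KD they were 1145 and 2284 CPM without UV and 1853 and 2742 CPM with UV. Thus WT libraries had less with UV than without at both times, and KD libraries had more. Of the 10 role groups, all except the inducible beta subunits had the higher sum without UV in WT at each time. In KD the sum with UV was the higher at both times except in 4 groups. The activators had KD sums of 105 and 373 CPM without UV and 249 and 348 CPM with UV. The 19S chaperones (75.1 and 70.2 CPM) and *PSMF1* (91.0 and 79.3 CPM) were likewise higher without UV at 40 min. The inducible beta subunits ran the other way, with 14.8 and 12.7 CPM in KD without UV against 7.55 and 7.51 CPM with UV, and with 3.29 CPM in WT without UV at 40 min against 7.08 CPM with UV. The lid, with the largest sums, had 518 and 886 CPM in WT without UV, 301 and 480.0 CPM in WT with UV, 266 and 641 CPM in KD without UV and 441 and 697 CPM in KD with UV. These sums are single libraries and were not tested.

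**Figure D2:**
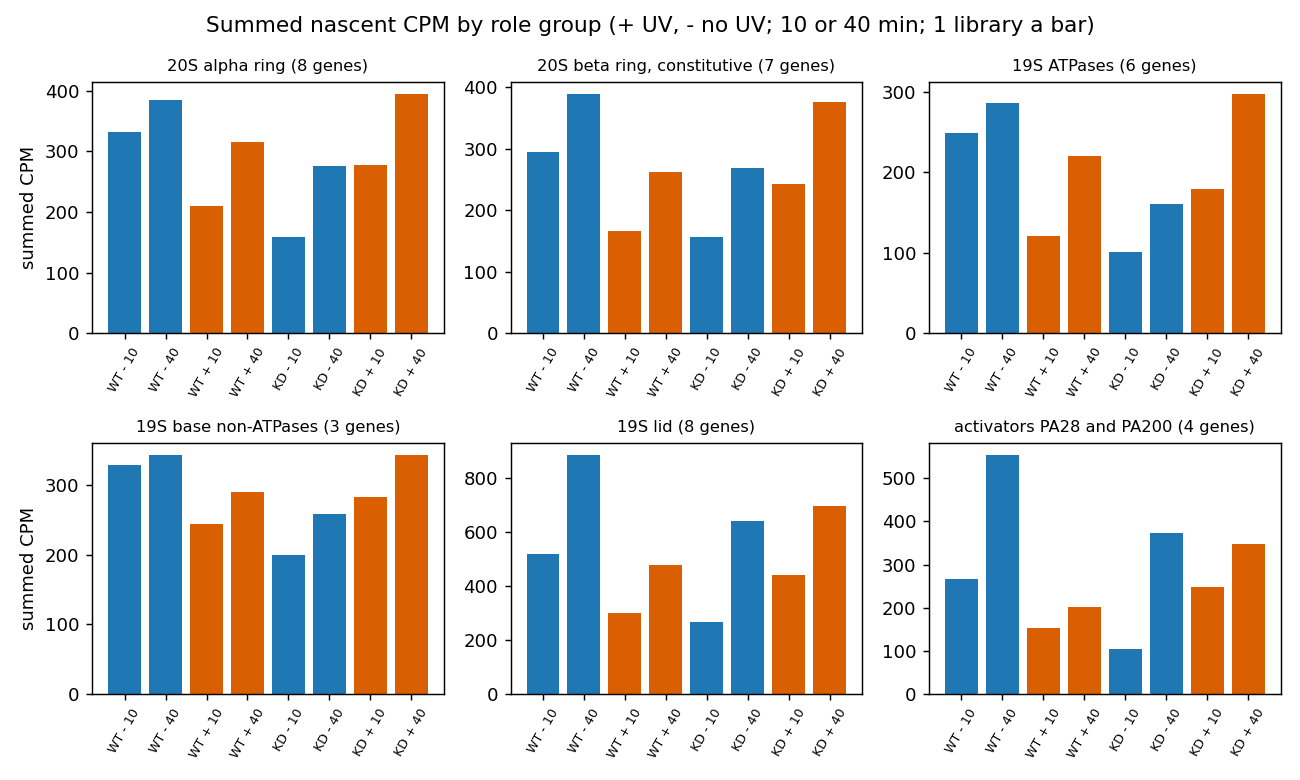
Summed CPM of 6 role groups (panels) in each library (bars, 1 library each; blue without UV, marked -, orange with UV, marked +; 10 or 40 min after DRB removal). In WT the bar without UV is the taller of each pair, and in KD the bar with UV is the taller except for the activators at 40 min (373 and 348 CPM).

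The knockdown by UV term compares the effect of knockdown in irradiated cells with that in unirradiated cells. It is the log2 ratio of KD over WT with UV minus that without, with time as a covariate and 3 residual degrees of freedom. It was called positive, at an edgeR adjusted p under 0.05, for 17 of 45 genes and negative for 0. Over all 17840 genes tested, 5.04% were called positive, and among the 5319 with a mean of at least 1 CPM per kb, a limit set after the data were seen, 14.1% were. The median term of the 45 genes was 1.38, against 0.11 over all genes and 0.94 over those 5319. The 17 adjusted p-values lay between 0.042 and 0.04999. *PSMC1*, an ATPase, was the last inside the threshold. The first outside were *PSMB9*, whose term was negative, and *PSMA5* of the alpha ring, both at 0.051. Of the 45 terms 42 were positive.

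The call rests on each KD library: without any 1 of the 4, 0 of the genes were called, and without any 1 of the 4 WT libraries 17 to 23 were. When the density over *OR51B5* was subtracted from every gene as a background, 0 were called, and that background rests on 1 gene. The shares of all genes called are not given for this fit or for those without 1 library. Whether the changes in number are particular to proteasome genes cannot be read from these counts. With the shortest transcript of each gene 2 were called, against 0.721% of all genes. Scaling by genes under 10 kb, which moves the median of all genes from 0.11 to −0.60, gave 8 positive calls, against 1.67% of all genes, and 2 negative. RLE scaling gave 25 positive, against 12.4%, and 1 negative, and DESeq2 29, against 13.6%, and 1.

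*PSMD2* had 159.6 and 125.7 CPM in WT without UV at 10 and 40 min, 59.4 and 116 CPM in WT with UV, 37.1 and 35.1 CPM in KD without UV, and 114.5 and 145.5 CPM in KD with UV. Its lowest values were both in KD without UV. The term was 2.58 ± 0.51 (SE, edgeR adjusted p = 0.042). *PSMD4* of the same base, a receptor for ubiquitin chains, was called at 1.89 ± 0.49. *PSMD1*, the other scaffold of the base, lay between 149.7 and 212.8 CPM in all 8 libraries and had a term of −0.12 ± 0.45 (adjusted p = 0.855).

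In the beta ring the constitutive subunits *PSMB3*, *PSMB4*, *PSMB5* and *PSMB6* were called, 4 of 7. *PSMB6* had 29.97 and 14.9 CPM in WT without UV at 10 and 40 min, 8.595 and 16.5 CPM in WT with UV, 6.89 and 4.87 CPM in KD without UV, and 21.6 and 19.3 CPM in KD with UV. At 10 min WT without UV and KD with UV were the higher libraries, and at 40 min WT with UV lay above WT without. The term of *PSMB6* was 2.57 ± 0.59 (adjusted p = 0.042). *PSMB5*, the subunit that cuts after hydrophobic residues and that bortezomib blocks, had 20.9, 15.7, 7.62 and 15.1 CPM in the WT libraries in that order and 6.89, 10.3, 16.0 and 22.9 CPM in the KD libraries, with a term of 1.95 ± 0.52 (adjusted p = 0.0432). *PSMB7*, which cuts after basic residues, spans 62.0 kb and had a term of 1.00 ± 0.45 (adjusted p = 0.115). *PSMB3* and *PSMB4*, which hold the ring together without a catalytic site, were at 2.0 ± 0.53 and 1.83 ± 0.47.

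The inducible subunit *PSMB9* ran the other way. It had 5.35 and 1.93 CPM in WT without UV at 10 and 40 min, 7.0 and 4.59 CPM in WT with UV, 9.97 and 10.2 CPM in KD without UV, and 5.01 and 3.94 CPM in KD with UV, from 40 to 123 reads. The KD libraries without UV were the highest. Its term was −1.97 ± 0.59 (edgeR adjusted p = 0.051), outside the threshold. Over all 17840 genes tested, 704 were called negative. The Pearson correlation of *PSMB9* with the median profile of the other genes was −0.80 over 8 libraries that share their scaling. *PSMA8* was alike, with a term of −1.07 ± 0.65 and a correlation of −0.77. *OR51B5* density was also highest in KD without UV, at 0.3045 and 0.332 CPM per kb. It was lowest in WT without UV at 40 min, at 0.107. What these genes share was not tested. *PSMB9* starts 214 bases from *TAP1*, the peptide transporter gene transcribed in the other direction, and *TAP1* had 0.628 to 2.84 CPM. *PSMB10* had a term of 0.02 ± 0.79.

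Of the 6 ATPases 4 were called, *PSMC1*, *PSMC3*, *PSMC4* and *PSMC5*. *PSMC4* had 66.85, 55.2, 27.5 and 54.2 CPM in the WT libraries (10 and 40 min without UV, then with UV), and 22.8, 21.1, 43.5 and 67.0 CPM in the KD libraries in the same order. Both KD libraries without UV lay below the other 6. The terms were 2.03 ± 0.48 for *PSMC3*, 1.94 ± 0.50 for *PSMC4*, 1.87 ± 0.47 for *PSMC5* and 1.49 ± 0.44 for *PSMC1*. *PSMC1* shares 40.1% of its span with *NRDE2* on the other strand. *PSMC2*, which shares 76.6% with *SLC26A5*, had 1.45 ± 0.44 (adjusted p = 0.0512), and *PSMC6* had 0.95 ± 0.42 (adjusted p = 0.116).

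In the lid, which removes ubiquitin before degradation, *PSMD3*, *PSMD7* and *PSMD8* were called, 3 of 8. *PSMD8* had 29.4, 20.9, 11.4 and 23.3 CPM in the WT libraries in the order used above, and 8.43, 8.44, 22.7 and 31.7 CPM in the KD libraries. Its term was 2.25 ± 0.53 (adjusted p = 0.0422). *PSMD14*, the metalloprotease that cuts ubiquitin off, is the longest lid gene and had 0.88 ± 0.54 (adjusted p = 0.231). In the alpha ring 1 of 8 was called, *PSMA7*, at 2.18 ± 0.52. It had 48.9, 28.2, 19.85 and 32.3 CPM in the WT libraries and 10.7, 11.4, 29.96 and 37.4 CPM in the KD libraries, so both KD libraries without UV lay below the rest.

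All 3 PA28 genes were called. *PSME1* and *PSME2*, the interferon-inducible subunits of the cytoplasmic ring, had terms of 2.07 ± 0.58 and 2.51 ± 0.59, and *PSME3*, which forms the nuclear ring, had 1.92 ± 0.45. *PSME2* was low, with 4.48, 5.03, 2.13 and 4.14 CPM in the WT libraries and 1.46, 2.0, 4.58 and 8.31 CPM in the KD libraries, from 18 to 114 reads. *PSME4*, which encodes PA200, had 1.57 ± 0.57 (adjusted p = 0.0717). No chaperone was called among the 3 of the 19S cap and the 3 of the core, nor was *PSMF1*. *PSMG3*, a core chaperone with 6 to 74 reads, had the widest error, at 2.57 ± 0.89 (adjusted p = 0.0657).

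The matched pairs showed both parts of the term. Without UV, KD lay below WT for 42 of 45 genes at 10 min (median log2 ratio −1.04) and 41 at 40 min (−0.56). With UV, KD lay above WT for 40 at 10 min (0.52) and 43 at 40 min (0.38). Over all genes tested the same 4 medians were −0.11, 0.02, 0.10 and 0.09, and over the 5319 they were −0.69, −0.38, 0.33 and 0.33. All 4 pairs had these signs for 40 of the 45 genes, which 34.1% of all genes tested and 62.0% of the 5319 had as well. At each time both WT without UV and KD with UV lay above the other 2 libraries for 25 of the 45, against 16.7% and 33.3%.

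**Figure D3:**
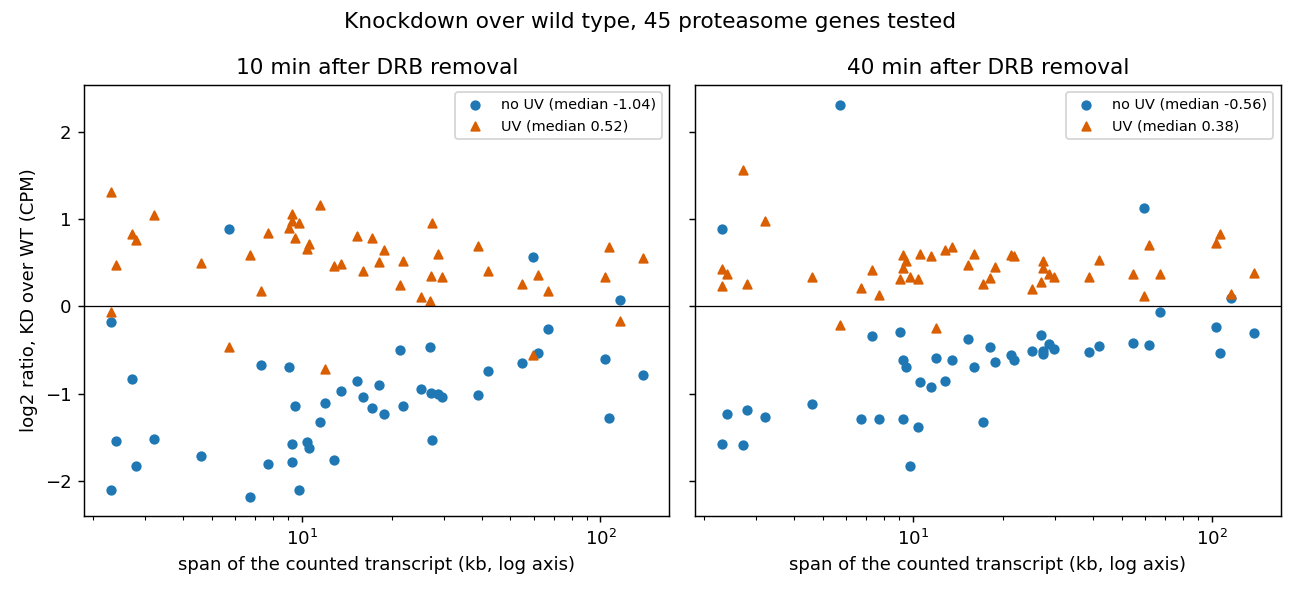
Log2 ratio of KD over WT in CPM (vertical) against the span of the counted transcript in kb (horizontal, log axis) for the 45 genes tested, at 10 min (left) and 40 min (right); blue circles are without UV and orange triangles with UV, 1 pair of libraries each. Most blue points lie below 0 and lowest for short genes, with medians of −1.04 and −0.56, and most orange points above 0, with medians of 0.52 and 0.38.

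The size of the term went with span. Of 16 tested genes under 10 kb, 11 were called, of 19 from 10 to 30 kb 6, and of 10 longer ones 0. The called genes spanned 2.33 to 18.9 kb. Among the 5319 genes the shares called positive were 24.2% under 10 kb, 16.6% from 10 to 30 kb, 5.58% from 30 to 100 kb and 2.05% beyond. The medians of the term in these 4 classes were 1.99, 1.38, 0.92 and 0.95 for proteasome genes and 1.27, 1.01, 0.85 and 0.36 for the 5319. Spearman's rho of span with the term was −0.54 over the 45 genes and −0.27 over the 5319, as a description in which all points share the same 8 libraries.

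Other genes of the pathway were taken from lists. For the counts that follow, 5.04% of all genes tested and 14.1% of the 5319 were called positive. *NFE2L1* itself was called, at 1.95 ± 0.53 (edgeR adjusted p = 0.0436), with 86.1, 42.8, 37.9 and 55.3 CPM in the WT libraries and 26.0, 15.7, 60.9 and 59.5 CPM in the KD libraries, again lowest in KD without UV. It was the only 1 of 10 genes for proteasome transcription factors and their processing that was, and *NFE2L2*, its relative in the oxidative stress response, was at 0.73 ± 0.44. Of 16 other proteasome parts and partners 4 were called, among them *VCP*, the segregase that pulls ubiquitinated proteins from complexes (2.21 ± 0.49), its cofactor *UFD1* (1.60 ± 0.42) and the ubiquitin receptor *ADRM1* (2.05 ± 0.57). *POMP*, the maturation protein of the core, was just outside at 1.34 ± 0.42 (adjusted p = 0.0551), and the lid subunit *SEM1* and the deubiquitinase *USP14* were at 0.91 and 1.24. Of 6 ubiquitin and E1 genes 3 were called, among them *UBB* (2.50 ± 0.62) and *UBA1* (1.73 ± 0.47). Of 15 ubiquitin ligase genes that act on RNA polymerase II 1 was, *ELOB* (2.05 ± 0.53). This 1 of 15 and the 1 of 10 above are near the shares called over all genes and over the 5319. The fibroblast markers *VIM* (2.56) and *COL1A1* (2.09) were called positive as well and *THY1* (−4.07) negative, of 13 listed with a median of −0.16, and the summed level of the 13 ran from 1676 to 5617 CPM. The median terms of the endothelial, muscle and immune markers tested were −1.44, −1.38 and −1.39, and among those called were *TIE1* and *DES*, negative, and *CD68*, positive. Their part in the result was not tested.

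The comparison of 40 with 10 min asks how reads moved along genes after DRB was removed. No proteasome gene was called in the additive fit, while 26 of 17840 genes (0.146%) and 0.244% of the 5319 were. An unadjusted edgeR p under 0.05 was found for 16 of the 45, for 3911 of the 17840 and for 1336 of the 5319. The median log2 ratio was 0.47, against −0.10 over all genes and 0.26 over the 5319. *PSMC6*, an ATPase of 21.4 kb, had the smallest p, with 28.1, 17.5, 19.9 and 20.7 CPM at 10 min in WT without UV, WT with UV, KD without UV and KD with UV. At 40 min it had 62.1, 29.7, 41.9 and 44.7 CPM in the same order, each above all of the 10 min libraries, and a log2 ratio of 1.04 ± 0.31 (SE, 4 of 4 pairs, adjusted p = 0.0866). *PSMA5* followed with 1.23 ± 0.38 (adjusted p = 0.0968). All 4 pairs were higher at 40 min for 25 of the 45 genes, against 27.7% of all genes tested and 42.4% of the 5319. Every 40 min library lay above every 10 min library for 7 of the 45 genes (*PSMA5*, *PSMB2*, *PSMC6*, *PSMD5*, *PSMD11*, *PSMG1* and *PSMG2*), and for 12.1% of all genes tested and 15.5% of the 5319, a share close to that of the 45. *PSMA8* and *PSMB10*, both with few reads, had the smallest p among those with a negative ratio, at −0.87 ± 0.41 and −0.65 ± 0.45.

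When the table order entered the fit, 18 of the 45 were called higher at 40 min, against 16.6% of all genes. Table order splits the libraries as the knockdown by UV contrast does, so this fit equals one that holds that term. In the 4 UV libraries alone 25 were called higher, against 12.7%. Each fit on 4 libraries here has 1 residual degree of freedom. In the 4 libraries without UV alone 12 were called higher, against 15.4%, and 2 lower. In the KD libraries alone 3 were called higher, against 7.79%, and DESeq2 called 4 higher, against 8.46%.

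Without UV the longer genes had the larger ratios over time, and with UV they did not, a difference that was not tested by itself. In WT without UV the median log2 ratio of 40 over 10 min was −0.34 for genes under 10 kb, 0.27 from 10 to 30 kb, 0.79 from 30 to 100 kb and 0.82 beyond, and in KD without UV it was 0.09, 0.89, 1.00 and 1.16. In WT with UV the 4 medians were 0.89, 0.80, 0.50 and 0.29, and in KD with UV 0.49, 0.66, 0.63 and 0.42. Spearman's rho of span with the ratio over the 45 genes was 0.70 and 0.65 without UV in WT and KD, and −0.31 and 0.16 with UV. Among the 5319 genes in WT the medians ran from −0.50 under 10 kb to 0.51 from 30 to 100 kb without UV, and from 0.55 to 0.29 with UV. Beyond 100 kb they were −0.04 and 0.06, so without UV the climb did not extend to the longest class.

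**Figure D4:**
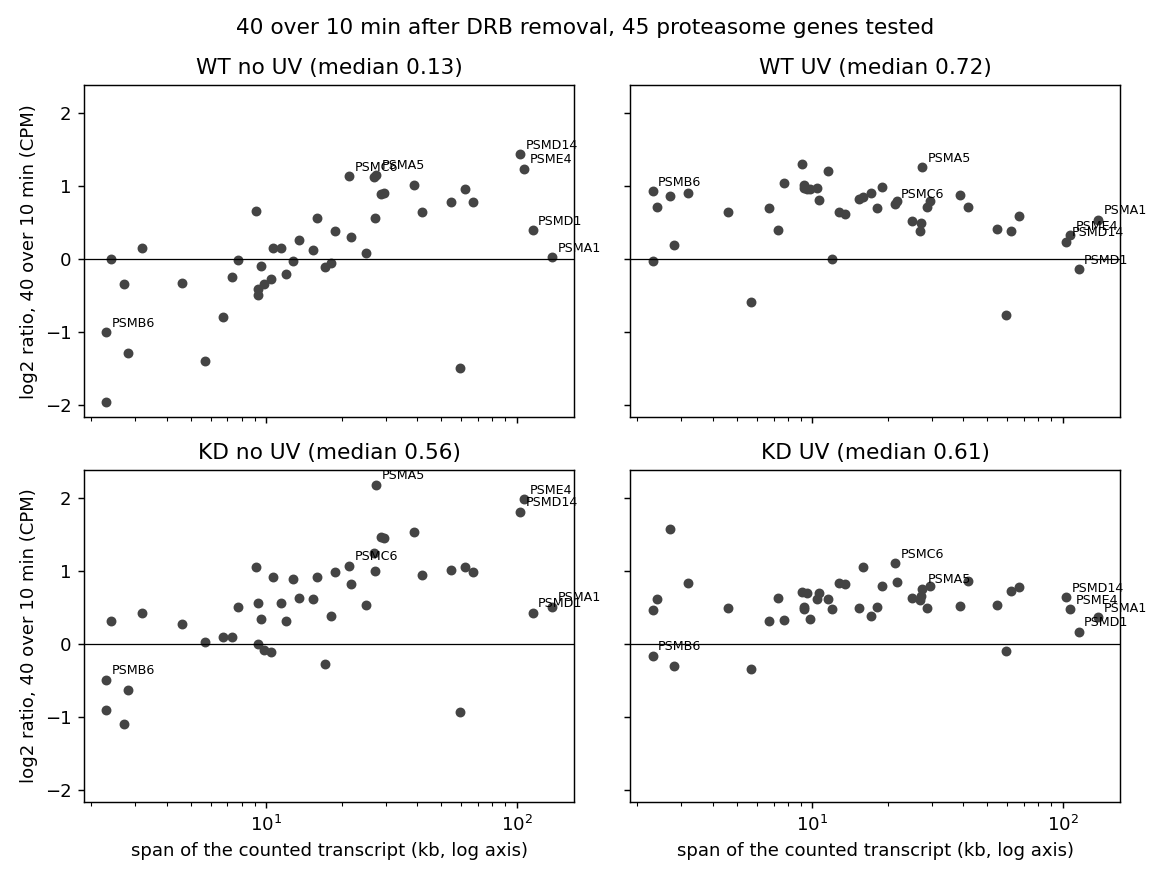
Log2 ratio of 40 over 10 min in CPM (vertical) against the span of the counted transcript in kb (horizontal, log axis) for the 45 genes tested, in WT and KD (rows) without and with UV (columns), 1 pair of libraries a panel. Without UV the points climb with span (rho 0.70 and 0.65), and with UV they do not (rho −0.31 and 0.16).

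The UV by time term, which compares the change over time with and without UV, was called for 0 of the 45 genes and for 0 of 17840, where 486 genes had an unadjusted edgeR p under 0.05. DESeq2 and limma-voom called 0 of the 45 as well. The negative terms with the smallest p were those of the long genes *PSMD14* (−1.12 ± 0.62) and *PSME4* (−1.08 ± 0.78), and the positive ones those of *PSMB10* (1.73 ± 0.72) and *PSMG3* (2.0 ± 1.14), both with few reads. The medians by span were 0.74, 0.29, −0.30 and −0.74 from the shortest to the longest class, and the median of all 45 went from 0.32 to −0.52 when genes under 10 kb set the scaling, and lay between −0.42 and 0.84 when single libraries were left out.

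For *PSME4* and *PSMD14*, both over 100 kb, shorter annotated transcripts show where along the gene the reads lay. *PSME4* (chromosome 2, 53864069 to 53970993, minus strand, hg38) had 214.5 and 505.4 CPM in WT without UV at 10 and 40 min, 129.6 and 162.7 CPM in WT with UV, 88.5 and 348.4 CPM in KD without UV, and 207.4 and 288.6 CPM in KD with UV. The gain over time was largest in both cells without UV, with log2 ratios of 1.24 and 1.98 against 0.33 and 0.48 with UV. A shorter transcript that shares its 3′ end splits the gene into its first 84.5 kb and last 22.5 kb. In the first part the density went from 1.78 to 5.08 CPM per kb in WT without UV and from 1.01 to 1.43 with UV, and in KD from 0.759 to 3.61 without UV and from 1.65 to 2.44 with UV. In the last part it went from 2.87 to 3.39 and from 1.97 to 1.86 in WT, and from 1.08 to 1.92 and from 3.04 to 3.66 in KD. The density of the first part over that of the last thus went from 0.618 to 1.5 in WT and from 0.701 to 1.88 in KD without UV, and stayed below 1 at 40 min with UV, at 0.771 and 0.668.

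*PSMD14* (chromosome 2, 161308425 to 161411717, plus strand) gave a like picture in total and a smaller one in position. Its total was 119.7 and 324.2 CPM in WT without UV, 88.0 and 104.2 CPM in WT with UV, 78.7 and 275.4 CPM in KD without UV and 111.3 and 173.4 CPM in KD with UV. The gains without UV were again the larger. In its first 72.9 kb the density went from 1.19 to 3.67 CPM per kb in WT without UV and from 0.897 to 1.12 with UV, and in the last 30.4 kb from 1.08 to 1.85 and from 0.744 to 0.746. In KD the first part went from 0.886 to 3.18 without UV and from 1.21 to 1.96 with UV. The ratio of first to last part was the higher at 40 min in all 4 conditions, going from 1.10 to 1.98, 1.20 to 1.5, 1.92 to 2.22 and 1.60 to 1.96 in the order just used. *PSMD1*, with a span of 116.0 kb, gained less. In its first 108.4 kb the density went from 1.21 to 1.73 CPM per kb in WT without UV and from 1.52 to 1.32 with UV. In KD it went from 1.39 to 1.89 without UV and from 1.28 to 1.4 with UV. All these values rest on 1 library each and were not tested.

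**Figure D5:**
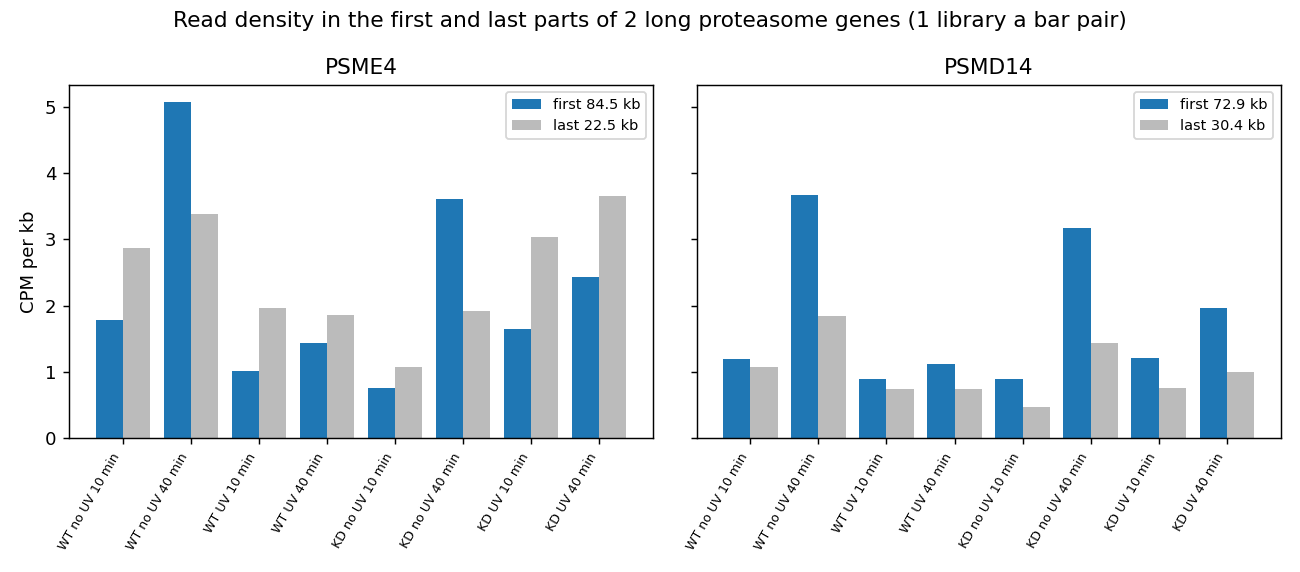
CPM per kb (vertical) in the first part (blue) and last part (grey) of PSME4 and PSMD14 in each library (horizontal, 1 library a bar pair). The blue bars are tallest at 40 min without UV, at 5.08 and 3.61 CPM per kb for PSME4 and 3.67 and 3.18 for PSMD14 in WT and KD.

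Among shorter genes with a split, *PSMB2* (42.0 kb) had 2.32 times the density in its first 10.0 kb than in the rest in WT without UV at 10 min and 1.12 times at 40 min, and 2.45 and 1.12 times in KD. With UV the ratio was 1.33 and 2.46 in WT and 1.92 and 2.75 in KD, so the first part stood higher at 40 min than at 10 min. *PSMC6* was alike except in WT with UV, with its first 3.1 kb at 2.04 and 1.20 times the rest in WT and 3.57 and 1.53 times in KD without UV, and at 3.05 and 2.57 times in WT and 2.39 and 3.90 times in KD with UV. For *PSMA5* the ratio of the first 24.1 kb to the last 3.3 kb was the higher at 40 min in all 4 conditions, for example 0.868 and 1.41 in WT without UV and 0.327 and 0.836 in WT with UV.

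The counted span exceeded the part that held the reads for *PSMA1* and *PSMG2*. For *PSMA1*, with a span of 138.6 kb, a transcript of 15.8 kb at its 3′ end had 1000 reads where the whole span had 1040 in WT without UV at 10 min, and 572 where it had 721 in KD without UV at the same time. The shorter transcript reaches slightly past the end of the longer one, so these counts are not exact shares. The RefSeq start of *PSMA1* lies 123231 bases inside the counted transcript. For *PSMG2*, a core chaperone of 67.0 kb, the last 22.7 kb held 79.5 to 94.5% of reads. Both are counted among the long genes above, although most of their reads lay in a span of 10 to 30 kb.

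For UV over no UV, 0 of 45 genes were called and 0 of 17840, with 304 genes and 1 of the 45 at an unadjusted edgeR p under 0.05, and the count was also 0 of the 45 by DESeq2 and by limma-voom. The fitted median of the 45 was 0.06. It averages medians of −0.87 and −0.27 in WT at 10 and 40 min with 0.76 and 0.71 in KD. These opposite signs cancel in the additive fit, so its 0 calls do not show that UV had no effect. In the KD libraries alone, with 1 residual degree of freedom, 13 were called higher with UV, against 4.51% of all genes, and 1 lower. The gene with the smallest p was *PSMA4* of the alpha ring, at 0.70 ± 0.30 (adjusted p = 0.993). It was also the one with the smallest p for KD over WT, at −0.67 ± 0.30 (adjusted p = 1.0). It had 25.6 and 22.2 CPM in WT without UV, 34.1 and 34.2 CPM in WT with UV, 11.8 and 14.7 CPM in KD without UV and 20.6 and 28.9 CPM in KD with UV. Both WT libraries with UV were the highest. The reads at its 3′ end were uneven between libraries. After the 8.8 kb transcript the counted span runs on for 3.2 kb (chromosome 15, 78549205 to 78552417). This stretch held 61.0 and 35.6% of the reads of *PSMA4* in WT with UV and 40.0 and 16.6% in KD without UV. It held 16.3 and 12.8% in WT without UV and at most 16.4% in KD with UV. The shortest transcript covers only the first 2.1 kb, with 8 to 70 reads, and so leaves out much more than this end. With it the KD over WT ratio of *PSMA4* was 0.21, on the other side of 0. In the 8.8 kb transcript, KD had 87 and 141 reads without UV at 10 and 40 min, against 220 and 401 in WT. With UV it had 215 and 331 reads in KD, against 150 and 293 in WT. Of the other genes, *PSMD8* was at 0.54 ± 0.47 for UV, and *PSMD9* (−0.62 ± 0.34) and *PSMD14* (−0.56 ± 0.36) had the smallest p among the negative ratios.

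For KD over WT, 0 of 45 and 0 of 17840 genes were called, with 84 genes and 1 of the 45 at an unadjusted edgeR p under 0.05, and the count was also 0 of the 45 by DESeq2 and by limma-voom. The median log2 ratio was −0.16, against 0.04 over all genes. It too averages opposite signs, below 0 without UV and above 0 with UV in the matched pairs given above. In the libraries without UV alone, with 1 residual degree of freedom, 18 of the 45 were called lower in KD, against 8.08% of all genes, and 1 higher. *PSMA7*, at −0.71 ± 0.45, had the next smallest p among the negative ratios after *PSMA4*, and *PSMB9* (0.63 ± 0.46) and *PSMA8* (0.34 ± 0.41) had the smallest among the positive ones.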

How the data were processed

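GRO-seq was done in 8 libraries of MRC5 cells, 1 per condition. Per the submitters' processing notes, the authors aligned reads to hg38 with BWA 0.5.9 and used SAMtools. The authors deposited raw read counts per annotated transcript, 41581 in each library's table. The counting tool, the annotation and use of strand in counting were not given in the sources used here. The libraries were prepared with a stranded kit and sequenced as single reads.

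The transcript with the largest span stood for each gene. The quasi-likelihood F-test of edgeR 4.0.16 (R 4.3.3) was run on the counts after TMM scaling. The filter filterByExpr, with a minimum count of 10 in a library of median size and of 15 in total, kept 17840 genes. UV, knockdown and time were additive terms over all 8 libraries (4 residual degrees of freedom), and each interaction kept the remaining factor as a covariate (3). P-values were adjusted by Benjamini-Hochberg over all genes tested. Log2 CPM used a prior count of 2. With no condition repeated, p-values measure the spread left between these libraries, and nothing shows that they came from separate cultures. On simulated counts of 17648 genes with known changes the test called 86.5% of changed genes for the knockdown by UV term. That share belongs to the settings of those counts. The share called at the sizes and standard errors fitted in these 8 libraries was not tested. DESeq2 1.42.0 and limma-voom (limma 3.58.1), RLE scaling, library totals, scaling by genes under 10 kb, no filter, the shortest transcript, subtraction of the density over an olfactory receptor gene, table order as a covariate, subsets of libraries and leaving out each library were tried.

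The genes, role groups and lists were chosen with earlier results of these data known. The text names, for each term, the called proteasome genes (up to 8 by size), or where none was called those with the smallest p, 2 per direction. It also names the catalytic subunits with their inducible counterparts, the highest member of each role group per kb, the member the filter removed, and the longest and shortest genes. Splits of a gene used annotated transcripts that share an end within 1000 bp, and the transcripts that share the 3′ end were added after the data were seen. Epithelial, endothelial and muscle marker lists summed to 43.2 to 71.5, 193.9 to 1399 and 30.6 to 113.8 CPM. Some genes of the lists are not reported here.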

Additional observations from a re-analysis of the deposited data

Results flagged for a closer look

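The response to knockdown differed between irradiated and unirradiated cells by the test of that difference for 17 of 45 proteasome genes (edgeR, positive in each case, against 5.04% of all genes tested). Among the 5319 genes with a mean of at least 1 CPM per kb the share was 14.1%. It was 24.2% for those under 10 kb, where 11 of 16 proteasome genes were called. The 8 largest were *PSMD2* (2.58), *PSMB6* (2.57), *PSME2* (2.51), *PSMD8* (2.25), *PSMA7* (2.18), *PSME1* (2.07), *PSMC3* (2.03) and *PSMB3* (2.0), as log2 of KD over WT with UV minus the same without. The order of the deposited tables splits the libraries in the same way as this contrast, so these cannot be told apart. Without any 1 of the 4 KD libraries the number called was 0. It was also 0 with *OR51B5* density subtracted, and lower with the shortest transcript of each gene. For the fits that gave 0, the shares of all genes called are not given.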

How the results depend on the processing

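The knockdown by UV calls, 17 of 45 genes, went to 26 with RLE scaling and 30 with DESeq2, to 10 with scaling by genes under 10 kb, to 2 with the shortest transcript and to 0 with *OR51B5* density subtracted, and to between 0 and 23 when 1 library was left out, with 0 without each of the KD libraries. Over all genes these settings moved the split of positive and negative calls from 899 and 704 to 2210 and 2578 (RLE), 2427 and 2588 (DESeq2) and 298 and 5096 (genes under 10 kb). The median of the 45 was 0.63 with scaling by genes under 10 kb. For 40 over 10 min the calls went from 0 to 4 with DESeq2, 18 with table order as a covariate, 3 in KD alone, 14 without UV alone and 25 with UV alone, and to between 0 and 3 with 1 library left out (3 without WT UV 40 min, 1 without KD UV 10 min), with medians from 0.24 to 0.84. For UV over no UV, 14 were called in KD alone, and the median in WT alone was −0.76. For KD over WT, 19 were called without UV alone and 1 with UV alone. The UV by time median was −0.52 with scaling by genes under 10 kb and −0.42 to 0.84 with 1 library left out. Signs reversed for *PSMD8* (−0.70, WT alone) and *PSMD14* (0.04, 10 min alone) for UV. For KD they reversed for *PSMB9* (−0.45), *PSMA8* (−0.33) and *PSMA7* (0.30) with UV alone and *PSMA4* (0.21) with the shortest transcript, and for time in *PSMB10* (0.12) with UV alone. The causes were not tested. Shares of all genes called are not given for fits without 1 library or with *OR51B5* density subtracted. Nor are they given for KD over WT with UV alone. Summed CPM by library totals was 3147 in WT without UV at 40 min, 1440.0 and 2058 in WT with UV, 1328 and 2016 in KD without UV, and 1812 and 2516 in KD with UV. With *OR51B5* density subtracted it was 2509 and 2709, 1654 and 2244, 1418 and 2680.0, and 2162 and 2766 in the order of the conditions used above, so the highest library was then KD with UV at 40 min. Table order could not be fitted beside the knockdown by UV term. Depth limits *PSMB8*, *PSMG3*, *PSMB10*, *PSMA8* and *PSME2*, which have few reads.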
